A study of Homo sapiens with 4 samples.

Results

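The nuclear pore and nuclear transport genes described here were 45 genes, taken by symbol from the rows of the deposited table that carry an Ensembl gene identifier. The table held 53777 such rows, and each of the 45 symbols matched 1 of them. RNA sequencing was done on NUGC3, a human gastric cancer cell line, as 4 libraries. In 2 of them, labelled NIPBL-knockdown, cells had been transfected with a short hairpin RNA against NIPBL, hairpin 1 in one library and hairpin 7 in the other. The other 2 were scramble libraries, from cells transfected with the scramble control. All 4 labels carry the letters DOX, which they do not explain. NIPBL encodes the protein that loads the cohesin ring onto chromosomes. The comparison asks how these genes differ when NIPBL is lowered.

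The nuclear pore complex is a ring-shaped channel through the nuclear envelope, built of proteins called nucleoporins. Outer and inner rings form its scaffold, nucleoporins rich in phenylalanine-glycine repeats fill the central channel, and filaments and a basket reach into the cytoplasm and the nucleus. Cargo is carried through the channel by importins and exportins. The small GTPase RAN sets the direction, because its GTP-bound form is made in the nucleus, where it releases import cargo and holds export cargo. Dividing cells must build new pores in each cycle.

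Values are the authors' FPKM, in which read numbers are divided by transcript length and by the size of the library. The read depth is unknown, since FPKM keeps no read number and the low values did not lie on steps of whole reads. FPKM is a share of the RNA sequenced, so less RNA per cell and fewer contributing cells cannot be told apart. NIPBL was at 7.27 FPKM with hairpin 1 and 9.17 FPKM with hairpin 7, against 23.92 and 23.11 FPKM in the scramble libraries, which fits the labels (limma, log2 change of -1.42 ± 0.14, SE, at an adjusted p of 0.0218). Without scramble 1 or scramble 2 limma called 0 genes in all, and the adjusted p of NIPBL was 0.257 and 0.261. The epithelial markers EPCAM, KRT8, KRT18, KRT19, CDH1 and CLDN4 were all detected, with summed values of 4214 and 5144 FPKM in the knockdown libraries and 5125 and 5181 FPKM in the scramble libraries. The knockdown means of EPCAM, KRT8 and KRT18 were 86.6%, 84.7% and 73.9% of the scramble mean. Those of KRT19, CDH1 and CLDN4 were 155%, 124% and 150% of it. Of 11 markers of blood cells, endothelium and fibroblasts, 10 had a row. COL1A1 reached 9.39 FPKM, and the others were at most 0.95 FPKM, with PTPRC and COL3A1 listed at 0 in every library. The labels do not say whether the libraries of a group come from separate cultures. Scramble 2 bears the name of scramble 1 plus an unexplained suffix, R1, so it may repeat the same sample, and n = 2 for scramble counts libraries. With the scramble libraries averaged to 1 sample limma called 0 genes. The p-values therefore reflect how far 4 libraries scatter, and part or all of that scatter may be technical.

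All 45 genes were expressed in every library. In scramble cells the 28 nucleoporin genes lay between 17.1 FPKM for POM121 and 65.3 FPKM for NUP98, with a median of 41.6 FPKM. The 17 transport receptor and Ran genes spread more widely, between 18.3 FPKM for IPO8 and 653 FPKM for RAN, with a median of 59.2 FPKM. RAN alone made up 20.7% of the summed FPKM of the 45 genes in scramble cells. After it came KPNB1 at 240 ± 2.75, KPNA2 at 183 ± 3.78, XPO1 at 178 ± 2.95, CSE1L at 177 ± 3.61 and IPO5 at 149 ± 4.60 FPKM (SD, n = 2 scramble libraries). XPO1 and CSE1L overlapped each other in level. Those 6 genes were the ones at or above 100 FPKM. Below them the order was tight, and in 26 of the 44 neighbouring pairs of the order the scramble values overlapped. Levels of POM121 and RANBP2 are uncertain, because POM121C and the RGPD genes are near-identical copies whose reads RSEM has to divide.

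**Figure D1:**
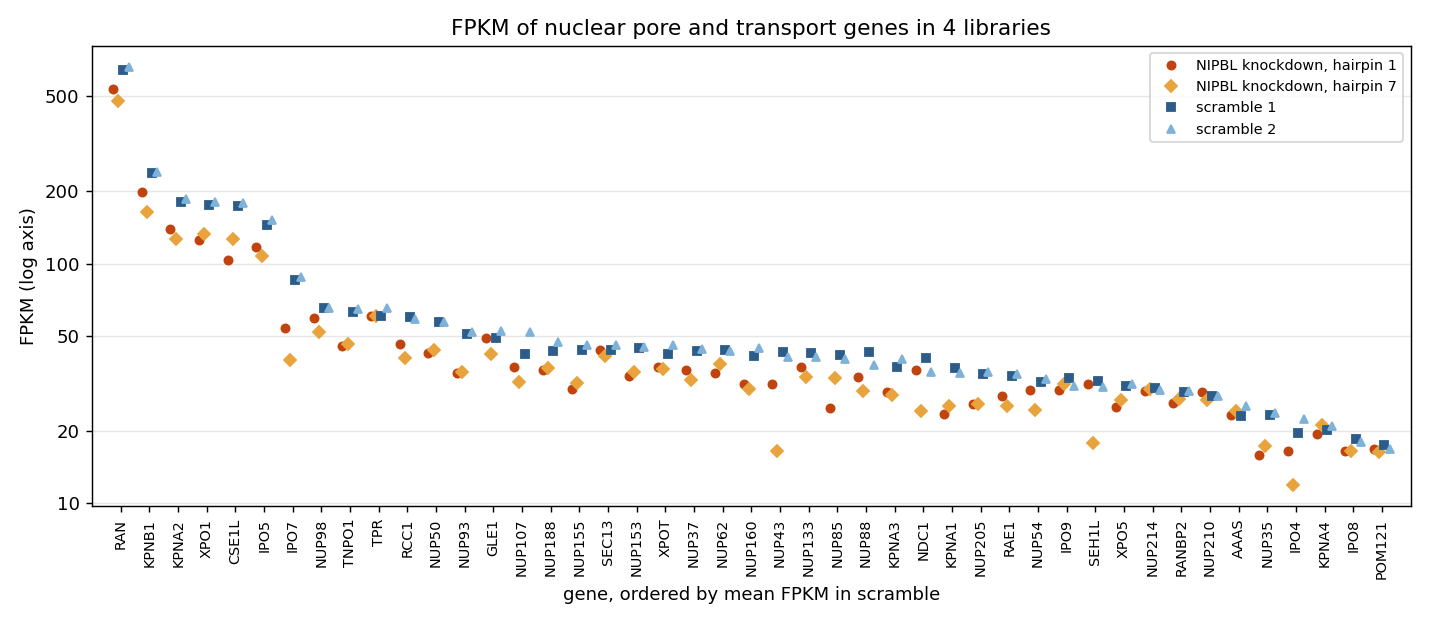
FPKM of the 45 genes on a log axis, 1 point per library, with genes ordered by their mean in the scramble libraries. RAN stands apart at the left, 5 receptor genes follow between 149 and 240 FPKM in scramble, and the orange and red knockdown points lie below the blue scramble points for most genes.

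Most genes of this machinery lay below scramble, as described further on, and their promoters were read for short motifs. Whether a motif bears on their levels was not tested. RefSeq start-site windows of GRCh38.p14, each covering 250 bases before and 50 after a start, were at hand for 41 of the 45 genes, in 52 windows. GLE1, KPNA4, KPNB1 and NUP43 had none in the table used. Matches on either strand were counted. The E-box CACGTG, a palindrome that MYC with MAX and other factors can bind, was in 8 of the 52 windows, or 15.4%. It was in 9.34% of 12842 windows of tested protein-coding genes and in 7.26% of all 35116 windows. The 8 stretches are shown as examples, 5′ to 3′ on the gene's strand, and the choice of this motif rests on no test. The ETS motif CCGGAAG was in more of the windows, 15 of 52, and its stretches are not shown. Capitals mark the E-box and up to 27 bases flank it on each side.
IPO7 (chr11:9384487-9384546, plus strand): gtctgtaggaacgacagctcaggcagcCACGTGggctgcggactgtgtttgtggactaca
IPO4 (chr14:24188817-24188872, minus strand): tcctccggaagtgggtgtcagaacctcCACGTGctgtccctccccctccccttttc
XPO1 (chr2:61537099-61537158, minus strand): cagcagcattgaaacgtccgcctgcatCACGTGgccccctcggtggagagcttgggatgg
KPNA3 (chr13:49792716-49792775, minus strand): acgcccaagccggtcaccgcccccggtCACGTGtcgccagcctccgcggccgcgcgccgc
RAN (chr12:130871937-130871996, plus strand): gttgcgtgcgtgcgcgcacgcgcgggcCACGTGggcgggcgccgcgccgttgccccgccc
RCC1 (chr1:28518009-28518068, plus strand): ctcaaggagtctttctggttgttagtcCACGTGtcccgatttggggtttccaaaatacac
NUP50 (chr22:45163724-45163783, plus strand): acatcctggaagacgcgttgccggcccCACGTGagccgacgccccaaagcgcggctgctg
NUP188 (chr9:128947595-128947698, plus strand): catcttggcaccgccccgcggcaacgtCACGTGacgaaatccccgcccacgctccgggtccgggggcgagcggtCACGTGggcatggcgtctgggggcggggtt

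The first base of the E-box lay between 29 bases before the window's RefSeq start in IPO4 and 190 bases before it in RCC1. NUP188 held 2 copies, at 77 and 30 bases. A gene can have several starts. The stretches of RCC1, XPO1, IPO4, KPNA3 and RAN lie inside the gene as drawn in the GENCODE 29 annotation. RCC1, for example, begins there at position 28505943, upstream of the printed stretch. In RAN the E-box shared bases with a GC box, GGGCGG. GC boxes were in 51.9% of the genes' windows, against 66.9% of windows of tested protein-coding genes. The CCAAT box was in 36.5% of the genes' windows and 35.2% of those windows, and TATAAA was in 1.92% and 5.86%. The ETS motif CCGGAAG was in 28.8% of the genes' windows, against 17.7%, and in XPOT it shared bases with a GC box. With 52 windows these shares rest on few matches, and a match of letters is not a bound site.

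In the knockdown libraries the whole group lay lower. All 45 log2 changes, computed on log2(FPKM + 1) as knockdown minus scramble, were below 0, a count that was 41 with TPM scaling and 44 with median-ratio scaling or quantile normalization, while 51.7% of 12834 genes tested were below 0. Their median was -0.36, against -0.01 over all genes tested. Among the 5196 protein-coding genes within the same range of mean FPKM, 16.8 to 580 FPKM, the median was -0.05 and 56.5% lay below 0. Summed FPKM of the 45 genes was 2505 with hairpin 1 and 2343 with hairpin 7, against 3123 and 3194 in the scramble libraries, so that the knockdown mean was 76.7% of the scramble mean. Without RAN it was 76.6%.

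No single gene passed the test. Over all genes tested, 0 of the 45 were called higher or lower at an adjusted p under 0.05 (limma), where 2.56% of all genes were called, 1.11% lower and 1.45% higher. An unadjusted p under 0.05 was reached by 27 of the 45, all lower (limma), against 12.8% of all genes lower and 13.6% higher. The smallest adjusted p among them was 0.0552, for NUP93. In 36 of the 45 both knockdown values lay below both scramble values, against 30.8% of all genes, and in 0 they lay above, against 29.5%. The remaining 9 overlapped. With TPM scaling 35 lay below and 1 above. All genes tested reach lower levels than the 45. Among the 5196 protein-coding genes within the same range of mean FPKM, 1904 lay below scramble without overlap and 1429 above. An unadjusted p under 0.05 was reached by 848 of those 5196 genes lower and 691 higher (limma). By size, 7 of the 45 genes had a knockdown mean under 70% of the scramble mean, 20 lay between 70% and 80%, 7 between 80% and 90%, and 11 at 90% or more. With 2 libraries on each side, the smallest p of an exact permutation test is 0.333. With the hairpin 1 library left out limma called 29 of the 45 lower, and with the hairpin 7 library left out 24, on the assumption that the single hairpin left varies as much as the scramble pair does. In those fits 19.6% and 11.6% of all genes were called lower, and 15.7% and 11.1% higher. With scramble 1 left out limma called 0 of the 45, and 5 reached an unadjusted p under 0.05, against 8.26% of all genes; with scramble 2 left out these were 0 and 2, against 8.20%.

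**Figure D2:**
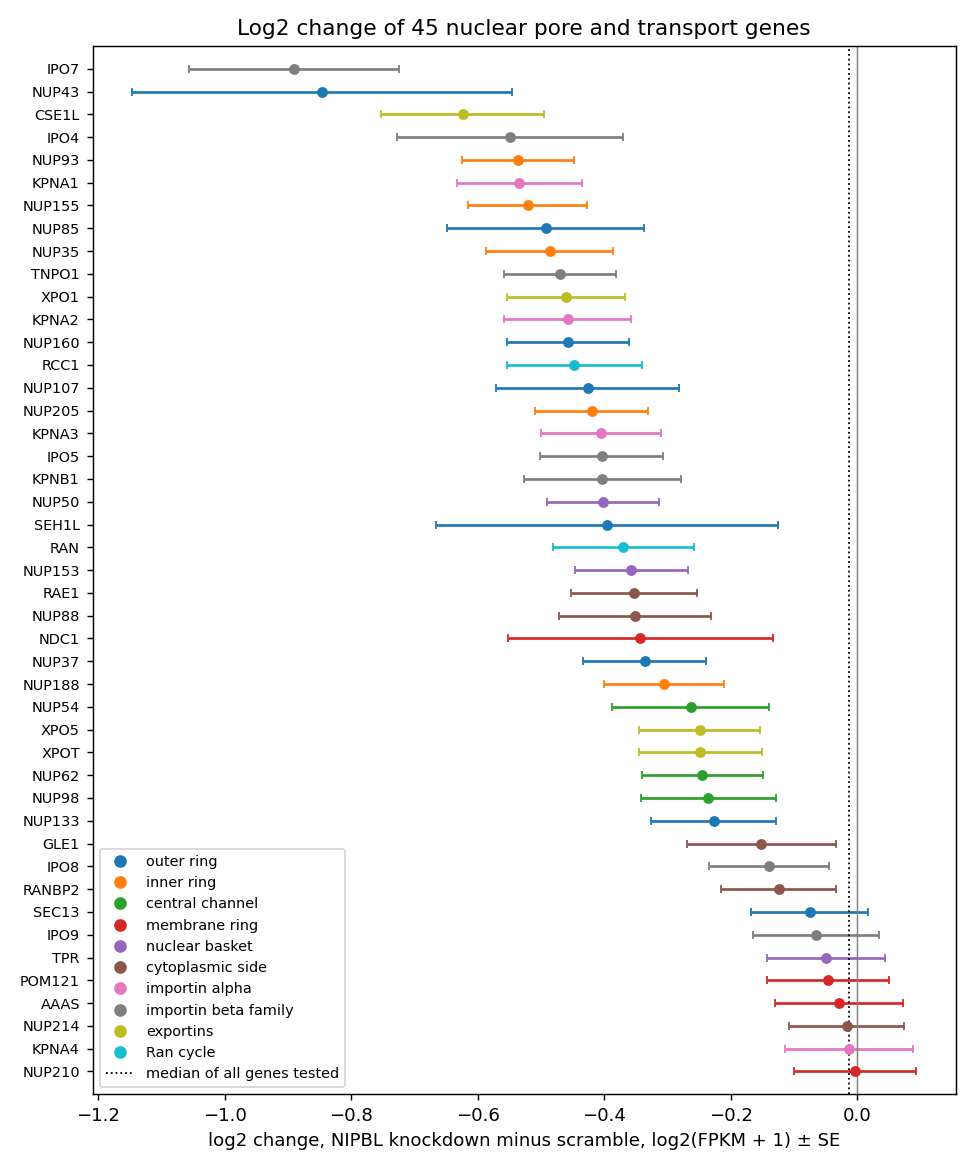
Log2 change of each gene on log2(FPKM + 1) values, knockdown minus scramble, with its SE from limma, ordered from IPO7 at the top (-0.89) to NUP210 at the bottom (-0.0033). Colours give the role, the solid line marks 0, and the dotted line is the median of all genes tested, -0.01.

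**Figure D3:**
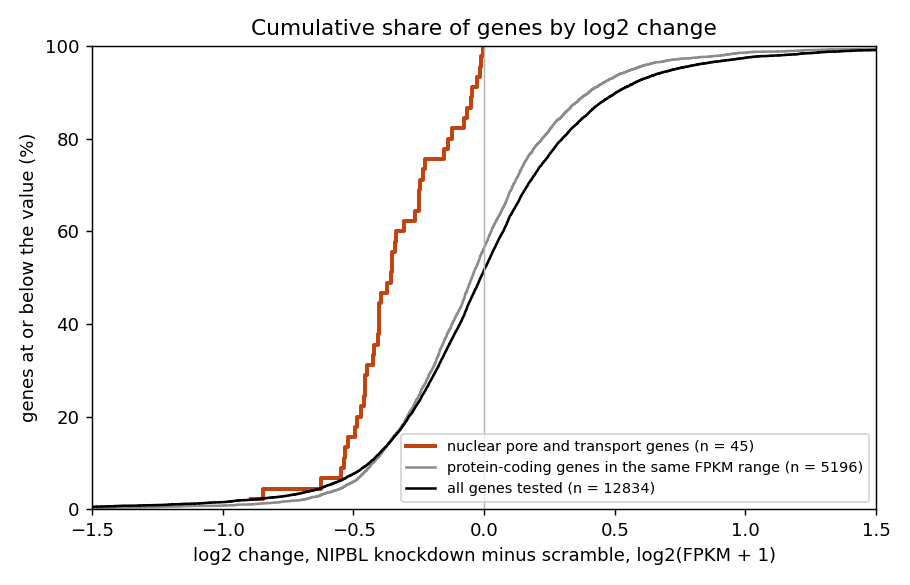
Cumulative share of genes by log2 change, for the 45 genes, for 5196 protein-coding genes in the same FPKM range and for all 12834 genes tested. The curve of the 45 genes reaches 100% before 0 on this scale (41 of 45 lie below 0 with TPM scaling), where the other curves stand at 56.5% and 51.7%; the horizontal axis is cut at -1.5 and 1.5.

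The outer ring, or Y complex, is the scaffold that coats both faces of the pore and is the first part laid down when pores form after mitosis. Its 8 genes had a median log2 change of -0.41, and 7 of them lay below scramble without overlap, against 30.8% of all genes tested. NUP160 was at 31.53 FPKM with hairpin 1 and 30.03 FPKM with hairpin 7, against 41.09 and 44.21 FPKM in the scramble libraries (limma, log2 change of -0.46 ± 0.10, SE, at an adjusted p of 0.079). NUP85 was at 24.89 and 33.13 FPKM in the knockdown libraries and 41.65 and 40.03 FPKM in the scramble libraries (adjusted p = 0.142, limma). For both genes the groups stood clear of each other. NUP37 was at 35.83 and 32.74 FPKM with the hairpins against 43.01 and 44.01 FPKM in scramble (adjusted p = 0.123, limma), and NUP107 at 36.92 and 31.99 FPKM against 41.90 and 51.67 FPKM in scramble. On the log2(FPKM + 1) scale the scramble libraries differed more from each other for NUP107, by 0.30, than for any other of the 45 genes. NUP133 lay at 85.2% of the scramble mean and SEC13, a subunit shared with the COPII coat of secretory vesicles, at 94.8%. For SEC13 the gap between the groups was smaller than the difference between the scramble libraries.

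NUP43 and SEH1L, peripheral subunits of the same complex, split the hairpins. NUP43 was at 31.42 FPKM with hairpin 1 and 16.44 FPKM with hairpin 7, against 42.63 and 40.88 FPKM in the scramble libraries (limma, log2 change of -0.85 ± 0.30, SE, at an adjusted p of 0.167). SEH1L was at 31.40 FPKM with hairpin 1, between the scramble values of 32.35 and 30.51 FPKM, and at 17.74 FPKM with hairpin 7 (adjusted p = 0.398, limma). Hairpin 7 thus gave the low value of both genes, and only NUP43 stood below scramble with hairpin 1 as well. NUP43 overlaps PCMT1 on the opposite strand, which was at 84.47 and 97.13 FPKM in the knockdown libraries and 103 and 104 FPKM in the scramble libraries. The strand setting of the libraries is not given in the sources used here, so reads of overlapping genes cannot be told apart. In GENCODE 29, 14 of the 45 genes overlap a tested gene, and only some of these overlaps are described here.

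The inner ring anchors the central channel to the membrane. Its 5 genes all lay below scramble without overlap, against 30.8% of all genes tested. All 5 had an unadjusted p under 0.05 (limma), against 12.8% of all genes tested lower. Their median log2 change was -0.49. NUP93, the linker that ties the ring together, was at 34.99 and 35.07 FPKM in the knockdown libraries, against 50.62 and 51.89 FPKM in the scramble libraries (limma, log2 change of -0.54 ± 0.09, SE, at an adjusted p of 0.0552). NUP155 was at 30.06 and 31.72 FPKM with the hairpins and 43.71 and 45.83 FPKM in scramble (adjusted p = 0.0643, limma). NUP35, which binds the membrane, was at 15.88 and 17.22 FPKM with the hairpins and 23.28 and 23.86 FPKM in scramble (adjusted p = 0.0772, limma). In each of these 3 genes the hairpins differed by less than their distance to scramble. The large scaffold genes NUP205 and NUP188 lay at 74.0% and 80.4% of the scramble mean. NUP188, with 2 E-boxes in its promoter window, overlaps SH3GLB2 on the opposite strand, whose log2 change was 0.42 (adjusted p = 0.08, limma).

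Genes of the central channel lay closer to scramble. NUP62, NUP54 and NUP98 encode repeat nucleoporins that form the permeability barrier, and NUP98 transcripts also encode NUP96, a subunit of the outer ring. NUP98 was at 59.29 and 51.62 FPKM in the knockdown libraries and 65.20 and 65.43 FPKM in the scramble libraries. NUP62 was at 34.88 and 38.01 FPKM against 43.71 and 42.96 FPKM in scramble, and NUP54 at 29.63 and 24.46 FPKM against 32.12 and 32.92 FPKM in scramble. All 3 lay below scramble without overlap, against 30.8% of all genes tested. Their log2 changes lay between -0.26 and -0.24, with adjusted p between 0.194 and 0.254 (limma).

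The membrane ring holds the pore in the envelope, and its genes stayed nearest to scramble, with a median log2 change of -0.04. NUP210, a transmembrane glycoprotein of the pore, was at 28.99 and 26.81 FPKM in the knockdown libraries, around the scramble values of 27.88 and 28.01 FPKM (limma, log2 change of -0.0033 ± 0.10, SE, at an adjusted p of 0.987). POM121 was at 16.74 and 16.35 FPKM with the hairpins and 17.41 and 16.83 FPKM in scramble, where the gap between the groups was smaller than the difference between the scramble libraries (adjusted p = 0.792, limma). AAAS, whose product is held at the pore by NDC1, was at 23.23 and 24.17 FPKM with the hairpins and 23.10 and 25.34 FPKM in scramble (adjusted p = 0.88, limma). NDC1 itself followed the hairpin 7 pattern of SEH1L, with 36.06 FPKM with hairpin 1 and 24.15 FPKM with hairpin 7, against 40.42 and 35.20 FPKM in scramble (adjusted p = 0.352, limma). The signs of NUP210 and AAAS turned under another scaling or with a library left out.

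At the nuclear basket, NUP50 and NUP153 lay below scramble and TPR did not. NUP50, a cofactor that helps release import cargo, was at 42.12 and 43.68 FPKM in the knockdown libraries and 56.97 and 57.05 FPKM in the scramble libraries (limma, log2 change of -0.40 ± 0.09, SE, at an adjusted p of 0.083). NUP153 was at 33.95 and 35.27 FPKM with the hairpins and 44.35 and 44.87 FPKM in scramble (adjusted p = 0.0982, limma). TPR, the coiled-coil filament of the basket, was at 60.21 and 60.52 FPKM with the hairpins and 60.10 and 65.02 FPKM in scramble, so the groups overlapped (adjusted p = 0.769, limma). Its log2 change of -0.05 was above 0 without scramble 2.

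On the cytoplasmic side 3 of 5 genes lay below scramble without overlap, against 30.8% of all genes tested. RAE1, an mRNA export factor that binds NUP98, was at 27.96 and 25.42 FPKM in the knockdown libraries and 33.96 and 34.72 FPKM in the scramble libraries (adjusted p = 0.117, limma). NUP88 was at 33.48 and 29.30 FPKM with the hairpins and 42.83 and 37.79 FPKM in scramble (adjusted p = 0.161, limma). Its partner NUP214 was at 29.24 and 29.88 FPKM with the hairpins and 30.33 and 29.51 FPKM in scramble, with a log2 change of -0.02 (adjusted p = 0.924, limma), above 0 with TPM scaling. RANBP2, the SUMO ligase of the filaments, was at 26.17 and 27.06 FPKM with the hairpins and 28.96 and 29.24 FPKM in scramble, without overlap but with an adjusted p of 0.428 (limma). GLE1, which activates the RNA helicase of mRNA export, overlapped scramble at 49.06 and 41.71 FPKM with the hairpins and 48.71 and 52.09 FPKM in scramble.

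**Figure D4:**
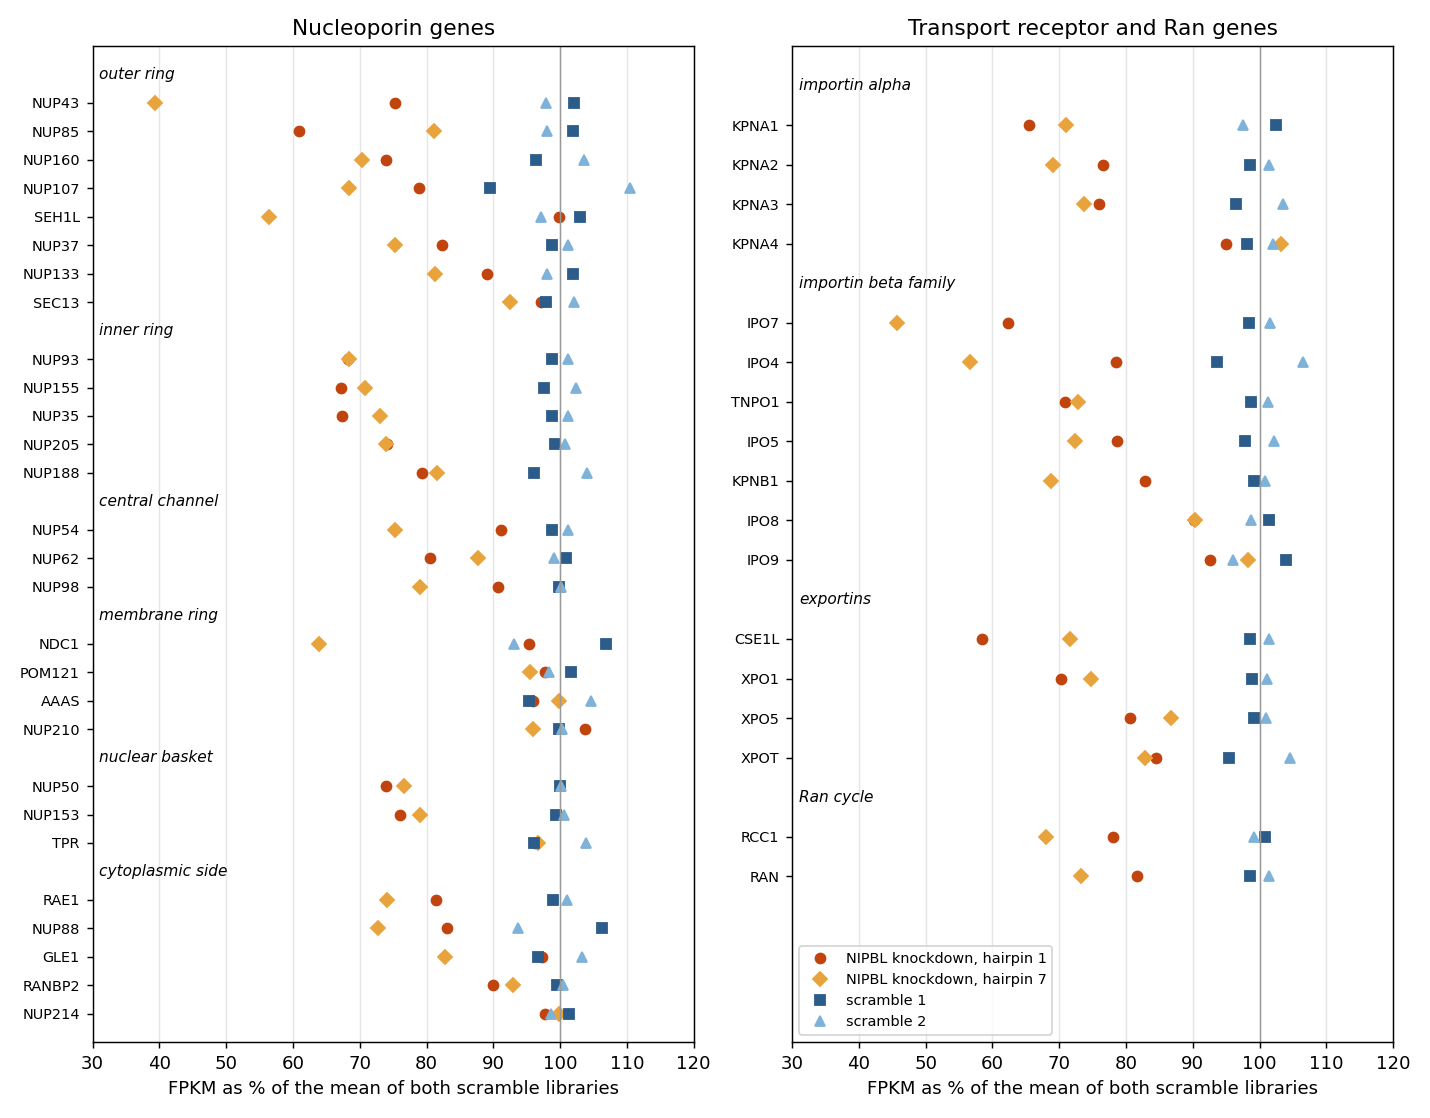
FPKM of each gene in each library as a percent of the mean of both scramble libraries, grouped by role, nucleoporin genes on the left and transport receptor and Ran genes on the right. The inner ring, importin alpha genes other than KPNA4 and exportin genes show both knockdown points left of both scramble points. Hairpin 7 gives a point far to the left for each of NUP43, SEH1L, NDC1, IPO7 and IPO4.

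Importin alpha proteins are the adaptors that read classical nuclear localization signals. Of the 4 genes, 3 lay below scramble without overlap, against 30.8% of all genes tested. KPNA1 was at 23.46 and 25.45 FPKM in the knockdown libraries and 36.75 and 34.95 FPKM in the scramble libraries (limma, log2 change of -0.53 ± 0.10, SE, at an adjusted p of 0.067). KPNA2, the form abundant in dividing cells, was at 139.84 and 126.19 FPKM with the hairpins and 180.17 and 185.52 FPKM in scramble (adjusted p = 0.083, limma). KPNA3 was at 29.21 and 28.34 FPKM with the hairpins and 37.12 and 39.80 FPKM in scramble (adjusted p = 0.091, limma). KPNA4 was the exception, with 19.50 and 21.18 FPKM around the scramble values of 20.13 and 20.93 FPKM (adjusted p = 0.945, limma). The sign of KPNA4 turned under another scaling or with a library left out.

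IPO7 had the lowest log2 change of the 45 genes over both hairpins. With hairpin 7 alone NUP43 lay lower, at -1.29 against -1.11 for IPO7, and with hairpin 1 alone CSE1L at -0.77 and NUP85 at -0.69 lay lower than IPO7 at -0.67. This importin, encoded on chromosome 11 (ENSG00000205339), carries ribosomal proteins and other cargo without an adaptor. It was at 54.03 FPKM with hairpin 1 and 39.59 FPKM with hairpin 7, against 85.25 and 88.04 FPKM in the scramble libraries. The knockdown mean was 46.8 ± 10.2 FPKM and the scramble mean 86.6 ± 1.97 FPKM (SD, n = 2 each). Its log2 change was -0.89 ± 0.17 (SE), at an adjusted p of 0.067 (limma). Both hairpins lay far below scramble and also apart from each other. IPO4, a carrier of histones and ribosomal proteins, was at 16.45 and 11.88 FPKM with the hairpins and 19.62 and 22.32 FPKM in scramble (adjusted p = 0.147, limma). TNPO1, the receptor of RNA-binding proteins, was at 45.07 and 46.31 FPKM with the hairpins and 62.82 and 64.50 FPKM in scramble (adjusted p = 0.0673, limma). IPO5, another ribosomal protein importer, was at 116.96 and 107.53 FPKM with the hairpins and 145.51 and 152.01 FPKM in scramble (adjusted p = 0.0929, limma). KPNB1, the beta subunit that carries importin alpha through the channel, was at 198.74 and 164.88 FPKM with the hairpins and 237.83 and 241.72 FPKM in scramble (adjusted p = 0.136, limma). IPO8 lay at 90.2% and IPO9 at 95.4% of the scramble mean, and IPO9 overlapped scramble.

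All 4 exportin genes lay below scramble without overlap, against 30.8% of all genes tested. CSE1L, which returns importin alpha to the cytoplasm, was at 103.25 FPKM with hairpin 1 and 126.58 FPKM with hairpin 7, against 174.17 and 179.27 FPKM in the scramble libraries (limma, log2 change of -0.62 ± 0.13, SE, at an adjusted p of 0.0772). XPO1, the general exporter of proteins with leucine-rich signals, was at 124.92 and 132.98 FPKM with the hairpins and 175.68 and 179.85 FPKM in scramble (adjusted p = 0.0753, limma). Here hairpin 1 gave the lower value of both genes. XPO5, which exports microRNA precursors, was at 25.07 and 26.98 FPKM with the hairpins and 30.83 and 31.39 FPKM in scramble (adjusted p = 0.187, limma). XPOT, which exports tRNA, lay at 83.7% of the scramble mean.

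Both Ran genes lay below scramble without overlap, against 30.8% of all genes tested. RAN was at 533.40 and 478.57 FPKM in the knockdown libraries and 643.84 and 662.71 FPKM in the scramble libraries (limma, log2 change of -0.37 ± 0.11, SE, at an adjusted p of 0.132). RCC1, the chromatin-bound exchange factor that charges RAN with GTP, was at 46.20 and 40.30 FPKM with the hairpins and 59.73 and 58.69 FPKM in scramble (adjusted p = 0.0919, limma). RCC1 overlaps the host gene SNHG3 on the same strand, and that gene fell to 11.55 and 9.75 FPKM in the knockdown libraries, against 25.50 and 34.23 FPKM in the scramble libraries (adjusted p = 0.0392, limma). How far reads of the overlap enter the RCC1 value was not tested. The SNHG3 call, like all others, was lost without scramble 1 or scramble 2.

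The 8 genes whose windows held an E-box, listed with their sequences, had log2 changes between -0.89 for IPO7 and -0.31 for NUP188, with a median of -0.43. All 8 lay below scramble without overlap, against 30.8% of all genes tested. The 33 genes with windows lacking the E-box had a median of -0.34 and 26 of them lay below scramble without overlap. For the ETS motif, the 14 genes with it had a median of -0.37 and the 27 without it a median of -0.36, with 12 and 22 of them below scramble without overlap. These are descriptions, and neither difference was tested. Protein-coding genes that start within 1000 bases on the opposite strand, head to head with a member in GENCODE 29, were found for 4 of the 45 genes (8.89%, against 10.1% of tested protein-coding genes). The partner of NUP37, PARPBP, had a log2 change of -0.58, and those of NUP188, TPR and XPO5, which are DOLK, ODR4 and POLH, had 0.13, 0.02 and -0.05, none of which passed (limma). The 45 genes lie on 18 chromosomes.

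Median log2 changes of the 45 genes were -0.30 with hairpin 1 and -0.42 with hairpin 7, each set against the same scramble libraries. With TPM scaling their order turned, at -0.33 with hairpin 1 and -0.31 with hairpin 7, since all rows of the hairpin 7 library sum to 682076 FPKM and those of the hairpin 1 library to 749446 FPKM. Hairpin 7 was within 0.25 of hairpin 1 on the log2(FPKM + 1) scale in 36 of the 45 (80.0%), and in 54.7% of all genes tested. It was lower by more than 0.25 in 7 genes (15.6%, against 24.7% of all genes tested) and higher by more than 0.25 in 2 (4.44%, against 20.6%), counts that were 5 and 3 with TPM scaling. All genes tested reach lower levels than the 45. The SD of hairpin 7 minus hairpin 1 was 0.24 over the 45 genes and 0.45 over all genes tested. It was 0.36 over the 5196 protein-coding genes in the same FPKM range. Between the scramble libraries the SD was 0.28 over all genes tested and 0.10 over those 5196. Within the narrower limit of 0.1 lay 19 of the 45 for the hairpins and 35 for the scramble libraries, and the median absolute difference was 0.11 between the hairpins and 0.05 between the scramble libraries. The lowest differences, hairpin 7 minus hairpin 1, were -0.89 for NUP43, -0.79 for SEH1L and -0.56 for NDC1. The highest were 0.40 for NUP85 and 0.29 for CSE1L. Between the scramble libraries the log2 differences of the 45 genes lay between -0.19 and 0.30. Each hairpin is 1 library, so the differences between hairpins have no replicate check.

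A wider list of 49 genes of the pore, its receptors, mRNA export and the nuclear lamina had 47 tested members. Of these 0 passed in either direction (limma), against 2.56% of all genes tested. An unadjusted p under 0.05 was reached by 15 of the 47, all lower (limma), against 12.8% of all genes tested lower and 13.6% higher. The median log2 change was -0.25, against -0.01 over all genes tested. The 4 with the smallest p lay below scramble in both hairpins. RANBP1, a helper of GTP hydrolysis by RAN, was at 183.07 and 151.08 FPKM in the knockdown libraries and 251.03 and 245.32 FPKM in the scramble libraries (adjusted p = 0.0829, limma). AHCTF1, or ELYS, which seeds pores on chromatin after mitosis, was at 77.10 and 67.51 FPKM with the hairpins and 108.08 and 94.76 FPKM in scramble (adjusted p = 0.0991, limma). The exportin gene XPO4 was at 9.91 and 8.96 FPKM with the hairpins and 13.70 and 13.83 FPKM in scramble (adjusted p = 0.0825, limma). NXT1, a cofactor of the mRNA exporter NXF1, was at 34.50 and 32.87 FPKM with the hairpins and 44.29 and 43.94 FPKM in scramble (adjusted p = 0.0919, limma). By class, the median was -0.12 for 4 other nucleoporin genes, -0.28 for 10 other transport receptors, -0.23 for 5 other Ran cycle genes, -0.25 for 18 mRNA export genes and -0.27 for 10 genes of the lamina and inner nuclear membrane. In that wider list 10 genes had a log2 change above 0, among them the transport receptor gene IPO13 at 0.30 and NUTF2, which returns RAN to the nucleus, at 0.08.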

How the data were processed

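Gene expression was measured in 4 libraries of NUGC3 cells, 2 with NIPBL hairpins and 2 scramble. The authors deposited FPKM per gene with 2 decimals, and the submitters' processing notes name STAR and RSEM without versions. Genome build, annotation, strand setting and filters: not given in the sources used here. Groups follow the genotype label, and replicate numbers follow sample order and pair nothing. The test took the 12834 genes whose mean over the libraries reached 1 FPKM. Values entered limma 3.58.1 (R 4.3.3) as log2(FPKM + 1), and lmFit was followed by eBayes using the mean trend. There were 2 residual degrees of freedom per gene, to which eBayes added 2.87. P-values are two-sided, with Benjamini-Hochberg adjustment across the 12834 genes tested and a call at 0.05. The log2(FPKM + 1) scale makes changes of low genes look smaller. The members and lists were chosen with earlier results of these data known. The rule for genes given with their library values and adjusted p took the 3 lowest and 3 highest log2 changes, the 3 largest hairpin differences, the 3 smallest p of each role and the 4 smallest p of the wider list, and log2 change with SE is printed for part of them. Other genes were named for their place in a role, and overlapping or neighbouring genes after their values were seen. Other pseudocounts, filters, scalings and left-out libraries were tried.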

Additional observations from a re-analysis of the deposited data

How the results depend on the processing

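Read depth is unknown and each hairpin is 1 library. The median log2 change of the 45 genes kept its sign in all 12 alternatives. It moved by less than 0.082, the SD between the hairpin medians. The fits without a hairpin library return the median of the other hairpin, so for them this limit is no check. The median was -0.32 with TPM scaling, -0.35 with median-ratio scaling and -0.34 with quantile normalization. Counts of the 45 genes called were 0 except with a mean of at least 5 FPKM, where 1 gene, NUP93, passed (adjusted p = 0.0492, limma), and in the fits without a hairpin library. With each library left out in turn that count lay between 0 and 29, and the count over all genes lay between 0 and 4532. The fits without a hairpin library both took their scatter from the same scramble libraries, so their calls are not independent. The scramble libraries may repeat the same sample. Over all genes 1 was called without a filter on low values and 0 with the scramble libraries averaged (975 at an unadjusted p under 0.05). The log2 change of NIPBL was -1.42 in both of these, with adjusted p of 0.118 and 0.267, and lay between -1.57 and -1.27 with each library left out, where its call was lost without scramble 1 and without scramble 2. Signs were kept in every alternative by 40 of the 45 genes. With TPM scaling the log2 changes were 0.036 for NUP210, 0.0096 for AAAS, 0.022 for NUP214 and 0.025 for KPNA4, and NUP210 was at 0.0059 with median-ratio scaling and 0.00058 with quantile normalization. With each library left out in turn the log2 changes lay between -0.058 and 0.051 for NUP210, between -0.093 and 0.035 for AAAS, between -0.11 and 0.0062 for TPR, between -0.036 and 0.0023 for NUP214 and between -0.070 and 0.043 for KPNA4. The cause was not tested. Without scramble 2 the log2 change of NUP43, at -0.88, was lower than that of IPO7, at -0.87. No paired analysis was possible because the labels give the libraries no shared replicate numbers.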
